A study of Mus musculus with 12 samples.

Results

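MLL-AF9 leukemia grown in mice without T and B cells was compared with the same leukemia grown in wild-type mice. All 12 libraries of the series entered the comparison, 8 from immunodeficient hosts (4 *Rag2*-/- and 4 NSG) pooled against 4 from WT hosts, and interest lay in genes that moved the same way in both immunodeficient hosts. Of 15026 genes tested, 10 were called in the pooled comparison and lay past its size limit the same way in each host. Of these, 9 were higher and 1 lower. They include *Mt1*, a metallothionein, *Mmp9* and the stefin *Stfa2l1*, made by maturing neutrophils, and, on the lower side, *Igf2r*, the mannose 6-phosphate receptor. The 9 also include the pseudogene *Npm3-ps1*, which reached the filter on low values only through the immunodeficient libraries. NSG hosts alone had 0 genes called higher or lower than WT, so the NSG part rests on the size of the difference. No gene was called in several other fits of the same libraries, so these calls depend on the processing. The cholesterol synthesis gene *Idi1* was also called, and most other genes of that list lay above WT in both hosts without being called.

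The leukemia cells are mouse bone marrow progenitors that carry the MLL-AF9 fusion and GFP from a retrovirus, and the same serially transplanted cells went into every host, so all groups share the oncogene, GFP and the many earlier passages through mice. Hosts were young adult females. WT hosts were C57BL/6J, and *Rag2*-/- hosts carried a deleted *Rag2* gene on that same strain. NSG hosts combine the scid mutation of *Prkdc* with a deleted *Il2rg* on the NOD strain and came from another supplier, so strain, supplier and the lack of NK cells cannot be told apart in them. RNA was taken from GFP+ cells of bone marrow collected once the mice had become moribund, and each library was labelled as a separate biological replicate. No treatment was given.

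RAG2 and its partner RAG1 cut the antigen receptor genes so that they can be rearranged, and without either protein no mature T or B cell forms. The scid mutation disables the DNA-dependent protein kinase that rejoins these cuts. IL2RG is the common gamma chain of several interleukin receptors and is needed for NK cells to develop. *Rag2*-/- mice therefore keep NK cells, whereas NSG mice lack T, B and NK cells. What both hosts share is the loss of adaptive immunity, including antibodies. The MLL-AF9 protein holds progenitors in a self-renewing myeloid state through *Hoxa9* and *Meis1*.

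Values are TPM, a transcript level corrected for gene length and library total, and differences are on the log2(TPM + 1) scale, which understates changes of genes near 0. The leukemia's programme was expressed throughout, with *Hoxa9* between 192 and 234 TPM and *Meis1* between 54.2 and 63.3 TPM. The mutations are those of the host mice and were not introduced into the leukemia cells, and *Il2rg* was at 41.2 to 61.4 TPM and *Prkdc* at 15.0 to 26.8 TPM in all libraries, while *Rag2* stayed between 0 and 1.22 TPM. The spacing of the low values gave an estimated 8.0 to 21.4 M read pairs per library, with medians of 8.46 in WT, 14.2 in *Rag2*-/- and 10.0 in NSG, and 3 pairs on a transcript of 1 kb then correspond to 0.499 to 1.29 TPM. *Rag2*-/- replicates 3 and 4 and NSG replicates 1 and 2 stood apart from the other libraries in earlier results of these data, so counts are also given without them. *Rag2*-/- replicate 3 had *Xist* at 15.5 TPM, against 0.652 to 3.02 TPM in the other libraries, and the 13 mitochondrially encoded genes are listed at 0 in every library.

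Reads of the immunoglobulin genes given here were few and came mostly from WT libraries, and none of these genes was called. Other immunoglobulin genes are not reported here. *Igkc*, the constant part of the kappa light chain, was at 4.05, 0.745, 18 and 14.7 TPM in WT replicates 1 to 4. It was at 0, 0.295, 0 and 0 TPM in the *Rag2*-/- libraries and at 0.676, 0, 0 and 0 TPM in the NSG libraries. The groups did not overlap, although WT replicate 2 came close to NSG replicate 1. In estimated read pairs these values are 5.0, 1.0, 37.5 and 18.5 in WT against at most 1.0 in any other library. *Igha*, the heavy chain of IgA, was at 1.94, 0.594, 0.767 and 0.238 TPM in WT and is listed at 0 in all 8 other libraries. *Jchain*, which links IgA and IgM into polymers, was at 0, 1.10, 0.915 and 1.18 TPM in WT, at 0.0661 TPM in *Rag2*-/- replicate 4, at 0.143 TPM in NSG replicate 1 and at 0 in the 6 others. *Ighg2b*, the heavy chain of IgG2b, was at 0.563, 0.296, 1.15 and 0 TPM in WT and is listed at 0 elsewhere, while *Ighg2c* and *Iglc2* were above 0 in WT replicate 3 alone. *Igkc* alone of these passed the filter on low values, and through the WT libraries, with a difference of -2.70 (SE 0.52, adjusted p = 0.0719 in limma), so it was not called. Its size depends on the pseudocount, at -5.17 with 0.1, and without WT replicate 2 it was called (-3.38, adjusted p = 0.0224). In bulk RNA, fewer cells of a type and less RNA per cell cannot be told apart.

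**Figure D1:**
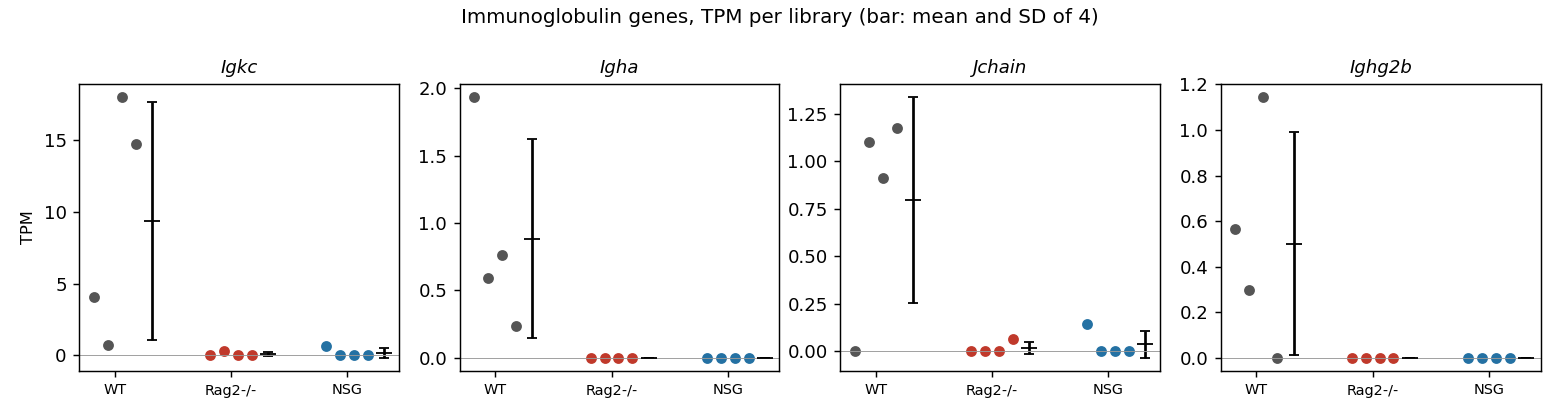
TPM (vertical axis) of 4 immunoglobulin genes in each library, by host. Points are libraries and bars the mean and SD of 4. *Igkc* reached 18 TPM in WT and at most 0.676 TPM in the immunodeficient hosts, and *Igha* and *Ighg2b* are at 0 in all 8 immunodeficient libraries.

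Markers of other lymphocytes were near 0 in WT as well. *Cd3e* and *Trac*, parts of the T cell receptor complex, and *Ms4a1*, the CD20 gene of B cells, are listed at 0 in all 12 libraries. *Ncr1*, an activating receptor of NK cells, was at 0.391, 0.408, 0.531 and 0.108 TPM in *Rag2*-/- libraries, which is 3.0, 2.0, 2.0 and 1.0 estimated pairs, and is listed at 0 in every WT and NSG library. Other markers did not follow the host genotype. *Klrb1c*, the NK1.1 receptor, was at 0.728, 0.268, 0 and 0.642 TPM in WT, at 1.08, 0.477, 1.73 and 0.421 TPM in *Rag2*-/- and at 0.121, 0.453, 0.477 and 0.0348 TPM in NSG libraries, with overlap between all hosts. *Cd3d*, of the T cell receptor complex, had 1.0 to 3.0 estimated pairs in each NSG library, 0 to 3.0 in WT and 0 to 1.0 in *Rag2*-/- libraries. The NK cell list summed to 5.58 to 8.25 TPM in WT, 6.24 to 14.0 TPM in *Rag2*-/- and 2.05 to 9.08 TPM in NSG libraries. Over the whole list of 20 B and plasma cell genes, 8 were tested, and the summed level was 233 to 299 TPM in WT, 184 to 277 TPM in *Rag2*-/- and 175 to 285 TPM in NSG libraries. That sum overlapped between hosts and was made up mostly of genes other than immunoglobulins.

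To list genes that differed from WT in common, the mean of both immunodeficient hosts was set against WT in limma. NSG hosts differ from WT in more than T and B cells, and the cause of a difference was not tested. A gene was called at a Benjamini-Hochberg adjusted p below 0.05 and a difference beyond 0.5. By these limits 14 genes were higher (0.0932% of the genes tested) and 1 was lower (0.00666%). Without the limit on size 18 genes had an adjusted p below 0.05, and 2512 genes (16.7%) had an unadjusted p below 0.05, 1477 higher (9.83%) and 1035 lower (6.89%). Of the 14 genes higher, 9 also exceeded 0.5 in each host on its own (0.0599%): *Stfa2l1*, *Mmp9*, *BC100530*, *Tarm1*, *Lilra6*, *Npm3-ps1*, *Mt1*, *Ublcp1* and *Camk1d*. The 1 gene lower, *Igf2r*, was past -0.5 in both hosts as well (0.00666%). *Idi1*, *Fpr1*, *Cd300ld*, *Tmem71* and *Ngp* were higher in the pooled contrast but past 0.5 in no more than 1 host. Just inside the limit lay *Camk1d*, at 0.55 in NSG, and just outside it *Idi1*, at 0.49 in *Rag2*-/-, *Fpr1*, at 0.48 in NSG, and *Cd300ld*, at 0.47 in NSG.

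The calls lay close to the threshold, with adjusted p from 0.0227 for *Mt1* to 0.0481. None was made in a fit of 2 groups (2246 genes at an unadjusted p below 0.05), with all genes above 0 tested or with a variance prior that does not depend on the level. The last 2 of these had 3056 and 2418 genes at an unadjusted p below 0.05. Without *Rag2*-/- replicates 3 and 4 and NSG replicates 1 and 2 the counts were 12 and 4, but these held only 6 of the 15 genes called in the main fit. Single libraries also moved the counts. Without *Rag2*-/- replicate 4 the fit called 52 genes higher and 12 lower, and without NSG replicate 4 it called 26 and 11. The counts were 13 and 0 without WT replicate 1, 5 and 0 without WT replicate 4, 4 and 0 without *Rag2*-/- replicate 1, 2 and 0 without NSG replicate 1, and 3 and 1 without NSG replicate 3. A like count did not mean the same genes. Only 5 of the 15 main calls were kept without WT replicate 1 and 3 without WT replicate 4. Without WT replicate 3, *Rag2*-/- replicate 2 or 3 or NSG replicate 2 no gene was called in either direction in limma, with 2116, 2402, 2045 and 2291 genes at an unadjusted p below 0.05, and without WT replicate 2 the counts were 0 and 1. The direction of all 10 genes was kept in every one of these fits, which was fixed in advance for those without overlap.

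Both hosts were compared with the same 4 WT libraries, so their differences share that side. Over all genes tested, 5831 (38.8%) were above WT in both hosts and 4940 (32.9%) below in both, while 342 (2.28%) were above 0.5 in both and 184 (1.22%) below -0.5 in both. All 8 immunodeficient libraries lay above all 4 WT libraries for 156 genes (1.04%) and below them for 162 genes (1.08%). On their own, *Rag2*-/- hosts had 172 genes called higher (1.14%) and 49 called lower (0.326%) than WT, and NSG hosts had 0 and 0 in limma, with 1377 genes (9.16%) at an unadjusted p below 0.05. The pooled contrast thus joins a large and a small set of differences, and the values of each host are given side by side below.

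**Figure D2:**
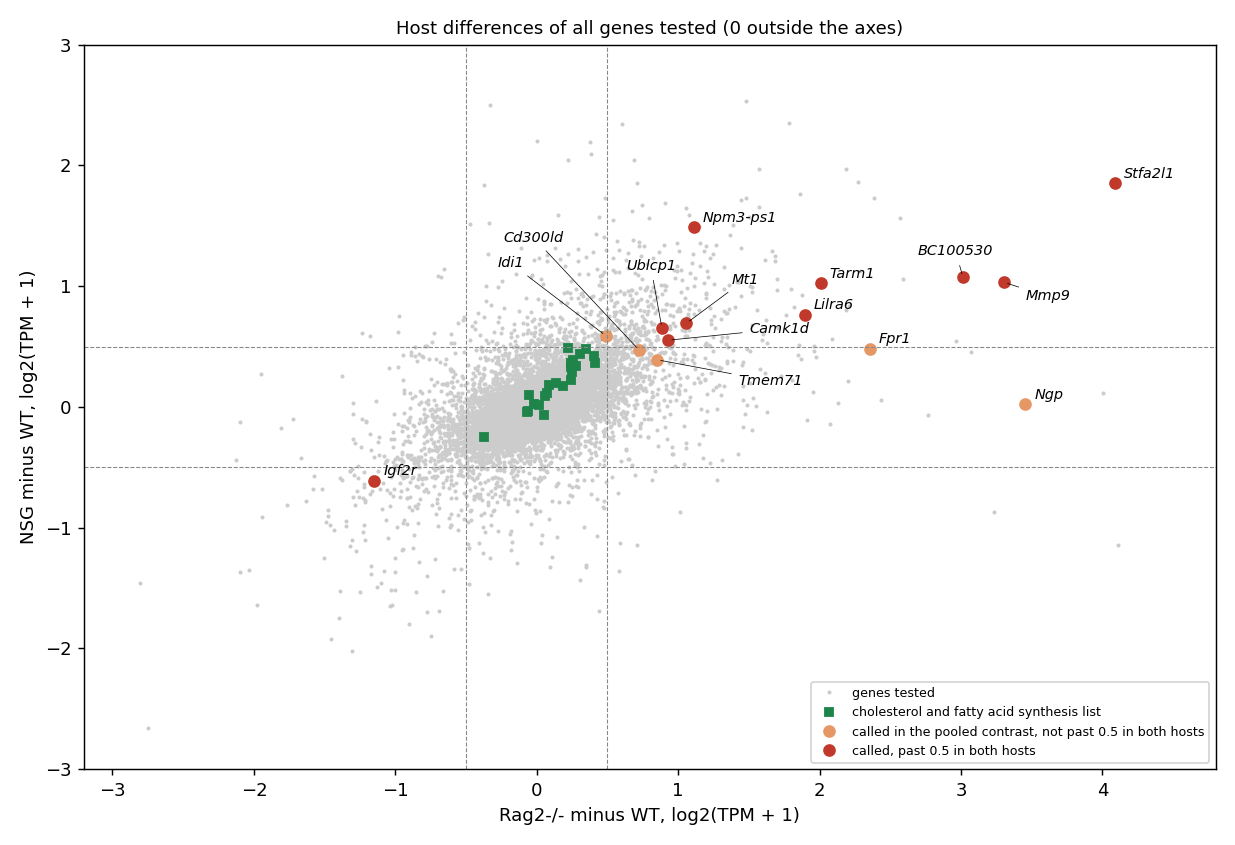
Difference from WT in log2(TPM + 1) in *Rag2*-/- hosts (horizontal axis) and NSG hosts (vertical axis) for the 15026 genes tested, with dashed lines at 0.5 and -0.5. Red points are the 10 genes called and past 0.5 in both hosts, orange points the 5 other called genes and green squares the cholesterol and fatty acid synthesis list. Both axes share the WT libraries.

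*Mt1* had the lowest adjusted p of all genes. It encodes metallothionein 1, a small cysteine-rich protein that binds zinc, copper and cadmium, and its gene (chromosome 8, 94179082 to 94180327, plus strand, GRCm38) is next to *Mt2*. *Mt1* was at 335, 325, 345 and 364 TPM in WT, at 745, 657, 719 and 735 TPM in *Rag2*-/- and at 692, 632, 450 and 476 TPM in NSG libraries. The WT values were close together, and every immunodeficient library lay above them, NSG replicates 3 and 4 least. The pooled difference was 0.88 (SE 0.10, adjusted p = 0.0227 in limma), with 1.06 in *Rag2*-/- and 0.69 in NSG hosts. The hosts differed from each other by 0.37 (95% interval 0.11 to 0.62, adjusted p = 0.202). With 1 library left out the pooled difference stayed between 0.82 and 0.93, and the adjusted p rose above 0.05 without WT replicate 2 (0.103) or 3 (0.0585), *Rag2*-/- replicate 2 (0.0529) or 3 (0.0774) or NSG replicate 2 (0.0502).

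*Mt2*, the neighbouring metallothionein gene, was far less abundant. It was at 0, 0, 0.217 and 1.44 TPM in WT, at 7.0, 5.61, 2.43 and 1.56 TPM in *Rag2*-/- and at 1.22, 0.285, 1.5 and 3.15 TPM in NSG libraries. These values rest on at most 20.5 estimated pairs, WT replicate 4 lay among the immunodeficient libraries, and the difference of 1.33 was not called (adjusted p = 0.138). With a WT mean of 0.414 TPM, *Mt2* reached the filter only through the immunodeficient libraries where it was higher. *Slc30a1*, the zinc exporter of the cell surface, was at 12.1 TPM in WT, 16.4 TPM in *Rag2*-/- and 15.1 TPM in NSG libraries on average (0.35, adjusted p = 0.159), and *Slc39a10*, a zinc importer, was at 23.1, 17.8 and 16.9 TPM (-0.40, adjusted p = 0.193). Of the 14 genes tested in the metal handling list, *Mt1* alone was called, where 0.0932% of all genes tested were called higher. The list's median was 0.071 against 0.015 over all genes tested.

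The largest called difference was that of a stefin, *Stfa2l1*, and a second stefin, *BC100530*, was called beside it. Stefin A proteins block cysteine proteases of the cathepsin family, and the mouse genes form a cluster on chromosome 16 in which near-identical copies may exchange reads, since the treatment of reads with several positions is not given in the sources used here. *Stfa2l1* (36156811 to 36161953) was at 3.60, 2.84, 0 and 7.06 TPM in WT, at 45.7, 91.8, 89.2 and 29.6 TPM in *Rag2*-/- and at 14.6, 11.2, 11.4 and 9.34 TPM in NSG libraries. The hosts formed separate ranges, *Rag2*-/- highest and NSG just above WT. The pooled difference was 2.97 (SE 0.46, adjusted p = 0.0455 in limma), with 4.09 in *Rag2*-/- and 1.85 in NSG hosts. The WT values rest on 3.5, 3.0, 0 and 7.0 estimated pairs and the NSG values on 13.5 to 19.0. Its size therefore depends on the floor. With a pseudocount of 0.1 it was 3.95 and not called (adjusted p = 0.0837 in limma), and without WT replicate 3 it was 2.38. *BC100530* (36359382 to 36367748) was at 17.5, 6.02, 10.0 and 6.15 TPM in WT, at 66.3, 126, 126 and 39.2 TPM in *Rag2*-/- and at 28.7, 18, 14.8 and 21.6 TPM in NSG libraries. Here NSG replicate 3 lay below WT replicate 1, so the groups overlapped. Its pooled difference was 2.04 (SE 0.34, adjusted p = 0.0481), with 3.01 and 1.07 in the hosts.

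*Mmp9*, a secreted gelatinase stored in the tertiary granules of neutrophils, was at 1.46, 0.672, 2.38 and 1.20 TPM in WT, at 27.9, 37.5, 28.1 and 8.01 TPM in *Rag2*-/- and at 4.93, 3.12, 3.79 and 3.55 TPM in NSG libraries. The 3 hosts again did not overlap, and *Rag2*-/- replicate 4 was the lowest of its group. The pooled difference was 2.17 (SE 0.33, adjusted p = 0.0455 in limma). The *Rag2*-/- difference of 3.31 exceeded the NSG difference of 1.03 by 2.27 (95% interval 1.45 to 3.09, adjusted p = 0.0437), so for *Mmp9* the hosts moved the same way by unequal amounts.

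A pair of receptors of the immunoglobulin superfamily on chromosome 7 followed the same order. *Tarm1* (3486500 to 3502624, minus strand), an activating receptor of myeloid cells, was at 4.07, 2.78, 6.25 and 4.40 TPM in WT, at 18.2, 22.2, 29.7 and 13.4 TPM in *Rag2*-/- and at 6.62, 9.33, 15.8 and 8.77 TPM in NSG libraries. *Lilra6* (3908280 to 3915503, minus strand), of the leukocyte immunoglobulin-like receptor family, was at 4.88, 2.79, 4.40 and 3.67 TPM in WT, at 17.9, 17.0, 26.5 and 10.5 TPM in *Rag2*-/- and at 5.72, 7.69, 8.34 and 7.56 TPM in NSG libraries. For both, every immunodeficient library lay above every WT library, by a small margin in NSG replicate 1. The pooled differences were 1.52 (SE 0.24) for *Tarm1* and 1.33 (SE 0.20) for *Lilra6*, each at an adjusted p of 0.0455 in limma. *Lilra6* belongs to a family of similar genes, so its reads are uncertain in the same way as those of the stefins.

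*Ublcp1* and *Camk1d* changed by less. *Ublcp1*, a phosphatase that acts on nuclear proteasomes, was at 8.73, 6.94, 7.35 and 6.57 TPM in WT, at 14.4, 14.9, 14.7 and 13.8 TPM in *Rag2*-/- and at 12, 11.5, 16.4 and 9.60 TPM in NSG libraries. The *Rag2*-/- libraries were close together, the NSG libraries were spread around them, and the pooled difference was 0.77 (SE 0.12, adjusted p = 0.0455 in limma). The *Rag2*-/- minus NSG difference was 0.23 (95% interval -0.067 to 0.53, adjusted p = 0.534). *Camk1d*, a calcium and calmodulin-dependent kinase, was at 5.49, 4.06, 7.08 and 4.90 TPM in WT, at 10.8, 11.1, 12.2 and 9.91 TPM in *Rag2*-/- and at 7.99, 8.03, 7.30 and 9.72 TPM in NSG libraries. NSG replicate 3 was only just above WT replicate 3, and the pooled difference was 0.74 (SE 0.12, adjusted p = 0.0481). The *Rag2*-/- difference of 0.93 exceeded the NSG difference of 0.55 by 0.38 (95% interval 0.067 to 0.69, adjusted p = 0.285).

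*Npm3-ps1*, annotated as a pseudogene of *Npm3*, was at 0, 0, 0.727 and 0 TPM in WT, at 1.90, 1.19, 1.16 and 1.73 TPM in *Rag2*-/- and at 2.73, 1.90, 2.34 and 1.95 TPM in NSG libraries. It was called (1.30, adjusted p = 0.0455 in limma), but it reached the mean of 1 TPM needed for testing only through the immunodeficient libraries where it was high, and no library held more than 5.5 estimated pairs of it, and the parent gene *Npm3* was at 129 to 169 TPM. How reads matching both were assigned is not given in the sources used here.

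*Igf2r* was the one gene called lower. Its product carries newly made lysosomal enzymes tagged with mannose 6-phosphate from the Golgi to endosomes and takes up and degrades insulin-like growth factor 2. *Igf2r* (chromosome 17, 12682406 to 12769664, minus strand) was at 38.8, 44.5, 42.1 and 49.2 TPM in WT, at 16.7, 15.7, 21.6 and 23.5 TPM in *Rag2*-/- and at 30.4, 31.6, 20.1 and 32.5 TPM in NSG libraries. All 8 immunodeficient libraries lay below WT, and NSG replicate 3 lay within the *Rag2*-/- range. The pooled difference was -0.88 (SE 0.14, adjusted p = 0.0455 in limma), with -1.15 in *Rag2*-/- and -0.61 in NSG hosts, which differed by -0.54 (95% interval -0.88 to -0.19, adjusted p = 0.168).

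**Figure D3:**
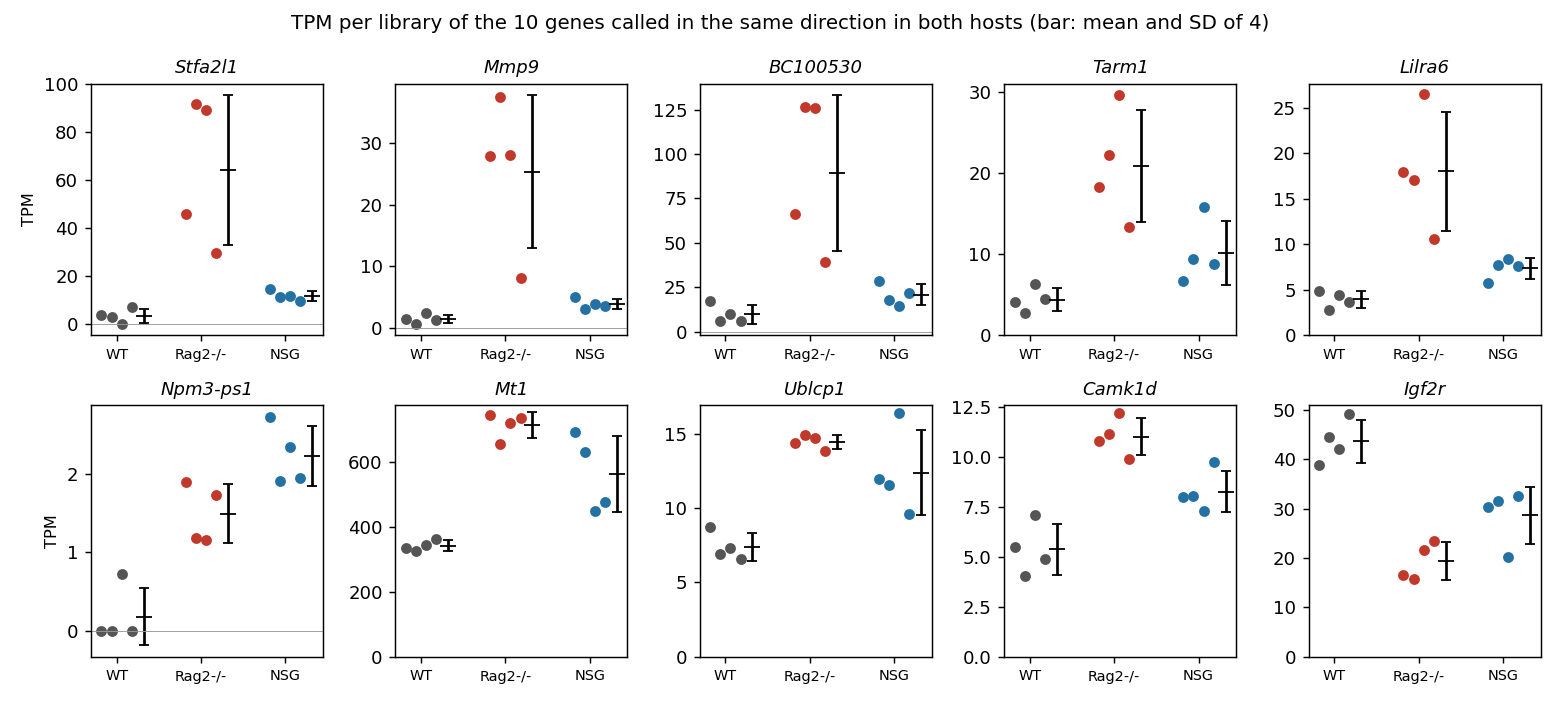
TPM (vertical axes) of the 10 genes called in the pooled contrast and past 0.5 in the same direction in both hosts, in each library, by host. Points are libraries and bars the mean and SD of 4. *Mt1* rose from 325 to 364 TPM in WT to 450 to 745 TPM in the immunodeficient hosts, while *Igf2r* fell from 38.8 to 49.2 TPM to 15.7 to 32.5 TPM.

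Among the genes called higher but past 0.5 in fewer than both hosts was *Cd300ld*, a receptor of the CD300 family on myeloid cells. It was at 115, 110, 119 and 137 TPM in WT, at 166, 220, 214 and 197 TPM in *Rag2*-/- and at 161, 172, 189 and 146 TPM in NSG libraries, without overlap, and the pooled difference was 0.60 (SE 0.09, adjusted p = 0.0455 in limma). *Tmem71*, which encodes a transmembrane protein, was at 14.9 to 17.6 TPM in WT, 29.0 to 32.8 TPM in *Rag2*-/- and 19.6 to 25.8 TPM in NSG libraries (0.62, SE 0.08, adjusted p = 0.0382). The groups formed 3 steps, as for *Mmp9*.

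*Fpr1* and *Ngp* were called largely through the *Rag2*-/- libraries. *Fpr1*, a receptor for bacterial formyl peptides that also reached the filter only through these hosts, was at 0.299 to 0.773 TPM in WT, 3.08 to 8.95 TPM in *Rag2*-/- and 0.815 to 1.33 TPM in NSG libraries, and the host differences of 2.36 and 0.48 differed from each other by 1.87 (95% interval 1.28 to 2.46, adjusted p = 0.0250 in limma). *Ngp*, neutrophilic granule protein, was at 11.2 to 19.7 TPM in WT, 79.0 to 301 TPM in *Rag2*-/- and 14.0 to 18.8 TPM in NSG libraries. Its NSG difference was 0.02, and the WT and NSG ranges overlapped throughout.

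These genes moved beside other genes of maturing neutrophils. Of the 23 genes tested of a secondary and tertiary granule list, 3 were called higher in the pooled contrast (*Mmp9*, *BC100530* and *Ngp*) and 0 lower, beside 0.0932% and 0.00666% of all genes tested. The median difference was 0.97 pooled, 2.08 in *Rag2*-/- and 0.061 in NSG hosts, against 0.015, 0.024 and 0.005 over all genes tested. The list summed to 3672 to 5928 TPM in WT, 5882 to 16050 TPM in *Rag2*-/- and 4614 to 5990 TPM in NSG libraries. *Retnlg* and *Ltf*, the gene of lactoferrin in specific granules, had opposite signs in the hosts, with 4.11 and 3.23 in *Rag2*-/- but -1.15 and -0.87 in NSG hosts, and neither was called in the pooled contrast. The part that the share of such cells among the GFP+ cells has in the called genes was not tested. A macrophage list, with 12 of 19 genes tested, had medians of 0.33 in *Rag2*-/- and -0.19 in NSG hosts and 0 calls.

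In the cholesterol and fatty acid synthesis list 1 gene, *Idi1*, was called, where 0.0932% of all genes tested were called higher. Most of the others lay above WT in both hosts. Cholesterol is built from acetyl-CoA by the mevalonate pathway, in which HMG-CoA synthase (*Hmgcs1*), mevalonate kinase (*Mvk*) and isopentenyl diphosphate isomerase (*Idi1*) act before squalene is made, and squalene epoxidase (*Sqle*), *Cyp51*, *Msmo1* and *Nsdhl* act after it. Most of these genes are switched on together by SREBP2, the product of *Srebf2*, when sterols in the endoplasmic reticulum run low. Of 25 genes in the list, 24 were tested, 20 were above WT in the pooled contrast and 4 below, where 53.9% and 46.1% of all genes tested were, and 18 were above WT in both hosts and 3 below in both. The median difference was 0.21 pooled, 0.20 in *Rag2*-/- and 0.21 in NSG hosts. No gene was called lower. In 6 of the 24 genes (25%), all 8 immunodeficient libraries lay above all WT libraries, beside 1.04% of all genes tested. At an unadjusted p below 0.05 in limma 12 were above WT and 1 below, beside 9.83% and 6.89% of all genes tested. The genes are known to be regulated together and do not count as independent observations.

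*Idi1* (chromosome 13, 8885501 to 8892451, plus strand) was at 21.1, 21.7, 25.4 and 22.9 TPM in WT, at 35.2, 30.6, 29.2 and 34.5 TPM in *Rag2*-/- and at 37.4, 37.3, 37.0 and 28.0 TPM in NSG libraries. The immunodeficient hosts overlapped each other and not WT, and the pooled difference was 0.54 (SE 0.09, adjusted p = 0.0481 in limma). *Sqle*, the next largest, was at 18.3, 19.2, 20.5 and 20.9 TPM in WT, at 27.5, 24.7, 24.6 and 24.6 TPM in *Rag2*-/- and at 23.6, 26.9, 37.3 and 25.6 TPM in NSG libraries. Its difference of 0.42 (SE 0.10) was not called, at an adjusted p of 0.0961. *Nsdhl*, a sterol dehydrogenase on chromosome X, was at 16.6, 19.3, 21.5 and 16.0 TPM in WT, at 26.6, 23.9, 22.3 and 25.1 TPM in *Rag2*-/- and at 25.3, 22.7, 29.6 and 21.9 TPM in NSG libraries. It too separated WT from the others without being called (0.41, adjusted p = 0.0940), as did *Msmo1* (0.37, adjusted p = 0.104), *Hmgcs1* (0.31, adjusted p = 0.133) and *Mvk* (0.29, adjusted p = 0.182).

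The separation did not extend to all steps. *Srebf2* was at 68.8 to 73.5 TPM in WT, 72.2 to 77.0 TPM in *Rag2*-/- and 71.5 to 102 TPM in NSG libraries (0.13, adjusted p = 0.431 in limma). On the fatty acid side, *Fasn*, fatty acid synthase, differed by -0.06 (adjusted p = 0.680), and *Scd2*, a stearoyl-CoA desaturase, was at 186 to 209 TPM in WT, 138 to 162 TPM in *Rag2*-/- and 148 to 205 TPM in NSG libraries (-0.31, adjusted p = 0.104). NSG replicate 3 was the highest library for *Sqle*, *Hmgcs1* (42.6 TPM), *Mvk* (34.2 TPM), *Cyp51* (58.0 TPM) and *Srebf2* (102 TPM). Without it the list's median was 0.14 pooled, 0.20 in *Rag2*-/- and 0.12 in NSG hosts, and 18 of 24 genes were above WT. In that fit 6 lay above WT without overlap, beside 244 of all 15026 genes. Without *Rag2*-/- replicates 3 and 4 and NSG replicates 1 and 2 the medians were 0.32 pooled, 0.21 in *Rag2*-/- and 0.36 in NSG hosts, 21 genes were above WT, and 10 did not overlap, beside 449 of all 15026 genes. The equality of the host medians thus rests on which libraries enter, in *Rag2*-/- as well as NSG hosts. Without *Rag2*-/- replicate 1 the *Rag2*-/- median was 0.146, and without replicate 2 it was 0.16, with NSG at 0.21 in both fits. After quantile normalization 18 genes were above WT and 5 did not overlap, beside 125 of all 15026 genes.

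**Figure D4:**
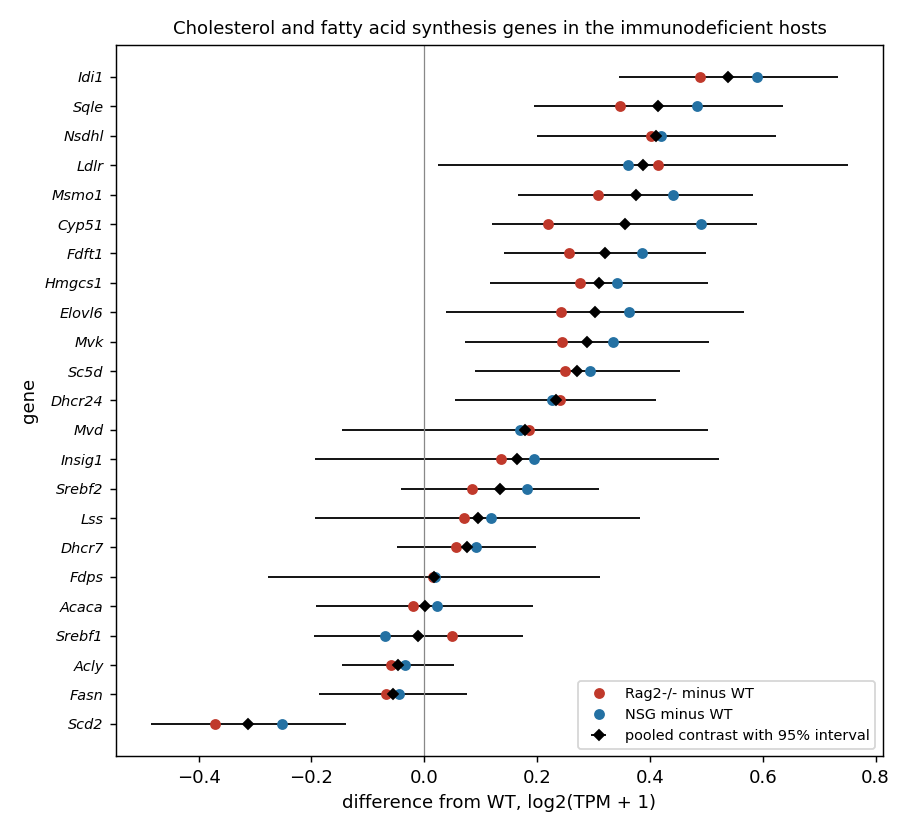
Difference from WT in log2(TPM + 1) (horizontal axis) for 23 of the 24 tested genes of the cholesterol and fatty acid synthesis list. Black diamonds are the pooled contrast with its 95% interval, and red and blue points *Rag2*-/- and NSG hosts. *Idi1* is highest at 0.54, *Fasn* lies near 0 and *Scd2* is lowest at -0.31.

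The promoters of *Idi1* and of 4 uncalled genes that also lay above WT without overlap are shown because all 8 immunodeficient libraries lay above WT for each, with the 250 bases before the RefSeq gene start on GRCm38.p6, read 5′ to 3′ on the gene's strand. Capitals mark CCAAT, or ATTGG on the other strand, the box bound by NF-Y, and TCACCCCAC on either strand, a sterol regulatory element read by SREBP. No promoter of *Sqle* was in the RefSeq table used.
Idi1 promoter, chr13:8885356-8885605, plus strand: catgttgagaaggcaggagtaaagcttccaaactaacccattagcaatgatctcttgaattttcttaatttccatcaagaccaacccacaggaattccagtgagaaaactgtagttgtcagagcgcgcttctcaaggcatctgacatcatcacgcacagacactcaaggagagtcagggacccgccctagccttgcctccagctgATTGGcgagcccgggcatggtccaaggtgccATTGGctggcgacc
Nsdhl promoter, chrX:72918271-72918520, plus strand: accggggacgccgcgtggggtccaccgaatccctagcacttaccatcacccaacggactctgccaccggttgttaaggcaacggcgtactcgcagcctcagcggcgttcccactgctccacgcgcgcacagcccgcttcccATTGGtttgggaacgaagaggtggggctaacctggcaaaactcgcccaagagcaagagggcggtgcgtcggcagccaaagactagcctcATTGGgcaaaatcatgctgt
Msmo1 promoter, chr8:64733579-64733828, minus strand: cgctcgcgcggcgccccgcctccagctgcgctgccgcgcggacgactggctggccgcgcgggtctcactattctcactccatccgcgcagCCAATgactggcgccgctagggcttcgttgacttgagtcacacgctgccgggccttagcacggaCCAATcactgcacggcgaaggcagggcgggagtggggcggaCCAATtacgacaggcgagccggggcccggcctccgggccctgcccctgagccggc
Hmgcs1 promoter, chr13:119690101-119690350, plus strand: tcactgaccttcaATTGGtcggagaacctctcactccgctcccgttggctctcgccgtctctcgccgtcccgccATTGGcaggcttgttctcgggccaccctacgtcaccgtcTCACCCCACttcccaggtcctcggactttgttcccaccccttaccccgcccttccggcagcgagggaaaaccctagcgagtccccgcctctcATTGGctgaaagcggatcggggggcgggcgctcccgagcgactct
Mvk promoter, chr5:114444019-114444268, plus strand: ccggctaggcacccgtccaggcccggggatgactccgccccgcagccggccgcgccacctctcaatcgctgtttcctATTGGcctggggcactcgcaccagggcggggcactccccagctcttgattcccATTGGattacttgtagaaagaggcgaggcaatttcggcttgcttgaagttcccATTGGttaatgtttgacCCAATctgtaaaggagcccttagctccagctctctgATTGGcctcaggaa
The CCAAT letters occur 2 times in the *Idi1* and *Nsdhl* promoters, 3 times in those of *Msmo1* and *Hmgcs1* and 5 times in that of *Mvk*. Of the 24 tested genes of the list, 17 had a promoter in the table, and 13 of these held CCAAT on either strand, as did 34.5% of all 27025 promoters. The sterol regulatory element was found in *Hmgcs1* alone of the 17 and in 0.466% of all promoters. A match is a run of letters in this window and was not tested as a binding site.

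On the lower side, 11 further genes lay below WT in all 8 immunodeficient libraries and were named by the same rule without being called. *Jag1*, a ligand of Notch receptors, was at 7.95, 9.87, 8.12 and 9.21 TPM in WT, at 4.54, 3.18, 6.14 and 5.07 TPM in *Rag2*-/- and at 5.46, 4.54, 5.67 and 4.50 TPM in NSG libraries. The immunodeficient hosts shared 1 range, and the difference was -0.75 (SE 0.14, adjusted p = 0.0670 in limma, and called without *Rag2*-/- replicate 4 at 0.0466). *Hdc*, histidine decarboxylase, which makes histamine, was at 154 to 204 TPM in WT, 84.0 to 126 TPM in *Rag2*-/- and 66.6 to 151 TPM in NSG libraries (-0.72, adjusted p = 0.109). *Ass1*, argininosuccinate synthase of arginine synthesis, was at 6.25 to 7.86, 2.12 to 4.49 and 3.80 to 4.83 TPM in the same order (-0.74, adjusted p = 0.0739). *Sox4*, a transcription factor of progenitors, was at 89.8 to 119, 35.4 to 75.4 and 50.5 to 89.5 TPM (-0.75, adjusted p = 0.104), a close approach of NSG replicate 2 to WT replicate 1.

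The other lower genes were *Igkc*, described above, *Pmp22*, a myelin protein also made outside nerves (-0.51, adjusted p = 0.0715), and *Otos*, *Nwd1*, *Emid1*, *Nme9* and *Tmem176b* (differences from -0.75 to -0.62, adjusted p from 0.0824 to 0.151 in limma). Like *Igkc*, *Tmem176b* passed the filter only through the WT libraries, averaging 2.21 TPM in WT and 0.879 TPM in the immunodeficient hosts. The 12th gene on the higher side was uncalled as well. *Hist1h2bb*, a replication-dependent histone whose transcripts mostly lack a poly(A) tail, is listed at 0 in all WT libraries and was at 0.618 to 4.83 TPM in the immunodeficient hosts, from 1.0 to 6.0 estimated pairs. It too passed the filter only through these hosts, and with WT at 0 no fold is given.

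Immune pathways that T cells and NK cells usually drive through interferon held no called gene, beside 0.0998% of all genes tested. At that share, the lack of a call says little about lists of this size. Interferon gamma from these cells induces GTPases and the machinery that loads peptides on MHC-I. Of 15 interferon gamma signalling genes tested, 5 were above WT in both hosts and 3 below in both. Their median was -0.055 pooled, 0.107 in *Rag2*-/- and 0.012 in NSG hosts. Of 39 antiviral interferon-stimulated genes tested, 23 were below WT in both hosts and 3 above in both, beside 32.9% and 38.8% of all genes tested. The median was -0.10 pooled, -0.22 in *Rag2*-/- and -0.029 in NSG hosts. In limma 0 were called, with 1 gene higher and 2 lower at an unadjusted p below 0.05, beside 9.83% and 6.89% of all genes tested. *Isg15*, a ubiquitin-like protein, was at 134 to 238 TPM in WT, 65.7 to 129 TPM in *Rag2*-/- and 125 to 192 TPM in NSG libraries (-0.51, adjusted p = 0.201). Of 11 interferon-inducible GTPases, 8 were below WT in both hosts, the median was -0.13 and 0 were called. *Gbp3* was at 116 TPM in WT, 85.4 TPM in *Rag2*-/- and 106 TPM in NSG libraries on average (-0.28, adjusted p = 0.238).

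No MHC-I gene was called, beside 0.0998% of all genes tested. The median of the 22 genes was -0.27 in *Rag2*-/- and 0.089 in NSG hosts. Above WT in both hosts were 2 and below in both 6, beside 38.8% and 32.9% of all genes tested. At an unadjusted p below 0.05 in limma 0 were higher and 5 lower, beside 9.83% and 6.89% of all genes tested. *B2m*, the common light chain, was at 3495 to 4729 TPM in WT, 2918 to 4951 TPM in *Rag2*-/- and 3690 to 6802 TPM in NSG libraries (0.04, adjusted p = 0.932 in limma). *Tapbp*, the tapasin that bridges MHC-I to the peptide transporter, was at 192 to 225, 164 to 206 and 147 to 184 TPM (-0.24, adjusted p = 0.157). All of these ranges overlapped with WT in at least 1 host.

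The leukemia's own programme held no called gene either, beside 0.0998% of all genes tested. The 21 tested genes of the MLL-AF9 self-renewal list had a median of 0.014, near that of all genes, with 0 called. At an unadjusted p below 0.05 in limma 2 were higher and 4 lower, beside 9.83% and 6.89% of all genes tested. Without overlap, 1 lay above WT and 2 below, beside 1.04% and 1.08%. *Meis1*, a cofactor of *Hoxa9*, was at 54.2 to 55.8 TPM in WT and at 55.9 to 63.3 TPM in the other libraries, without overlap but by 0.09 alone (adjusted p = 0.331 in limma). *Dot1l*, the histone H3 methyltransferase recruited by MLL fusions, was below WT in all 8 libraries by 0.16 (70.4 TPM in WT, 64.2 TPM in *Rag2*-/- and 62.1 TPM in NSG libraries on average, adjusted p = 0.123). *Kit*, the stem cell factor receptor, differed by -0.34 (adjusted p = 0.156).

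**Figure D5:**
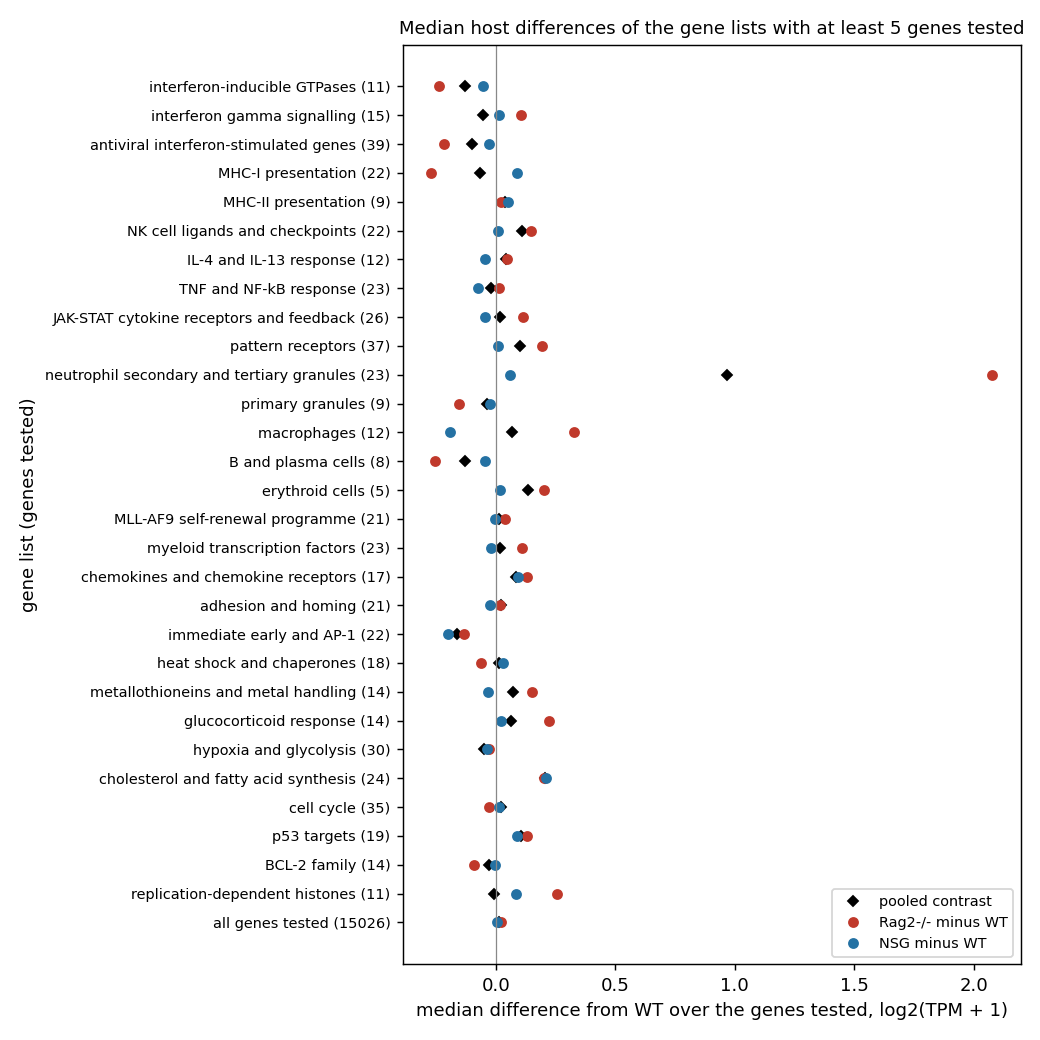
Median difference from WT in log2(TPM + 1) (horizontal axis) over the tested genes of each list with at least 5 genes tested (number in brackets), in the pooled contrast (black), *Rag2*-/- (red) and NSG hosts (blue), with all genes tested at the bottom. The granule list is at 2.08 in *Rag2*-/- and 0.061 in NSG hosts, while the cholesterol list is at 0.20 and 0.21.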

How the data were processed

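RNA of GFP+ MLL-AF9 cells from 12 mice was measured. The authors selected mRNA with poly-T beads, used HISAT2 to align paired reads to mm10, and computed TPM from raw counts of each gene. The deposited TPM sum to 1000000 per library over 55401 genes. The counting tool and its annotation are not given in the sources used here. Symbols and exon lengths came from GENCODE M21 (GRCm38, 55141 genes matched). Multiples of the lowest values (98.6% to 98.9% of values under 20 pairs fell within 0.02 of a multiple of 0.5 pairs) gave the estimated pairs per library. They are estimates with no interval.

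The test, on genes averaging 1 TPM or more, used limma 3.58.1 in R 4.3.3 on log2(TPM + 1), with the 3 hosts in 1 fit, eBayes with a trend and the contrast of the mean of *Rag2*-/- and NSG minus WT. Figures and motif counts used Python 3.11.15. Members and lists were chosen with earlier results of these data known. Named genes were the first 12 higher and 12 lower without overlap (called genes first, then by the smaller of both host differences, without pseudogenes or predicted genes), the genes of 37 hand-written lists, and the 5 called genes that differed most between the immunodeficient hosts. Some genes of the lists are not reported here. The genes printed from the lists were chosen after their values were seen. The 24 other settings tried, 1 of them added after seeing the data, covered the model, pseudocount, filter, scaling, prior, fold limit, replicate block, the other split and each library left out.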

Additional observations from a re-analysis of the deposited data

Results flagged for a closer look

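In 17 of 188 groups of 4 libraries over 63 genes described, 1 library lay farther from its nearest neighbour than Dixon's 95% critical value of 0.829 of the group's range, where chance would give about 1 in 20, or 9.4. NSG replicate 4 was lowest for *Idi1* (0.96) and *Wfdc21* (0.938), NSG replicate 3 highest for *Cyp51* (0.87), NSG replicate 2 lowest for *Tapbp* (0.837) and NSG replicate 1 highest for *Igkc* (1.0). *Rag2*-/- replicate 3 was highest for *Hist1h2bb* (0.913) and lowest for *Nwd1* (0.927) and *Otos* (0.888). *Rag2*-/- replicate 4 was highest for *Gbp3* (0.873) and lowest for *Hoxa9* (0.932) and *Retnlg* (0.861), *Rag2*-/- replicate 1 was highest for *Sqle* (0.937) and *Rag2*-/- replicate 2 for *Igkc* (1.0). Among WT libraries, replicate 1 was highest for *Ass1* (0.854), replicate 3 for *Npm3-ps1* (1.0), replicate 4 for *Mt2* (0.849) and replicate 2 for *Tap2* (0.893). The values of 1.0 belong to genes at 0 in the other libraries of the group.

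For 8 of the 63 genes the *Rag2*-/- and NSG differences from WT were themselves unequal in limma (adjusted p below 0.05 over all genes tested), with *Rag2*-/- higher each time. Over all genes tested, 0.193% were called higher and 0.02% lower in *Rag2*-/- than in NSG hosts, and the 63 genes include some that were chosen for this difference. The *Rag2*-/- minus NSG difference was 2.27 for *Mmp9*, 1.87 for *Fpr1*, 3.43 for *Ngp*, 2.42 for *S100a8*, 3.89 for *S100a9*, 2.62 for *Camp*, 4.10 for *Ltf* and 5.26 for *Retnlg*. Of these genes, *Mmp9*, *Ngp*, *Camp*, *Ltf*, *S100a8* and *S100a9* encode granule or S100 proteins of neutrophils. Of these 8, *Mmp9* alone was called and past 0.5 in both hosts.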

How the results depend on the processing

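All 10 genes that moved the same way kept their direction in each of the 24 alternatives that tested them. Of 640 pairs of a named gene and an alternative, 0 reversed, 243 lost a call and 4 gained one. Most named genes were chosen for groups that did not overlap, so a fit on fewer libraries could not reverse them. The kept directions are therefore no support on their own. The calls themselves depended on the processing, and the cause was not tested. In the 2-group fit, with no filter, without a trend in eBayes and with the replicate block, 0 genes were higher and 0 lower, and 0 higher and 0 lower the same way in both hosts. The other changed counts of genes higher were 9 with a pseudocount of 0.1, 1 after quantile normalization (1 the same way, and 0 lower by either count), 7 after median ratio scaling (5 the same way) and 2 with the other split as a factor (2 the same way, and 2 lower by either count). Without a limit on the fold change 3 were lower, and with the other split left out, chosen after seeing the data, 4 were lower, 3 of them the same way. Between the immunodeficient hosts 32 genes were called, against 14 with a pseudocount of 0.1, 7 with no filter, 19 after quantile normalization, 11 after median ratio scaling, 18 without a trend, 5 with the replicate block, 15 with the other split as a factor and 18 with it left out. With each library left out in turn, 0 to 52 genes were higher, 0 to 12 lower, 0 to 21 and 0 to 9 the same way, and 4 to 90 differed between the immunodeficient hosts.

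Replicate numbers did not pair the libraries, since deviations from the group means correlated at -0.091 to 0.032 over 12 same-numbered pairs, and in the replicate block the lowest adjusted p was 0.0502, shared by *Mt1*, *Tarm1* and *Tmem71*. Scaling moved the median of all genes by less than 0.1. Low depth limits *Igkc*, *Mt2*, *Npm3-ps1*, *Hist1h2bb* and the WT values of *Stfa2l1*, and WT replicates 1, 2 and 4 were the shallowest libraries.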

Other observations

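Other lists, chosen with earlier results of these data known, held few shared changes, and 0 of their genes were called unless given above. Over all genes tested, 38.8% were above WT in both hosts and 32.9% below, and the counts below stand beside these shares. Of 19 p53 targets tested, 12 were above WT in both hosts and 3 below, with a median of 0.11 beside 0.015 over all genes. *Zmat3*, an RNA-binding protein induced by p53, was at 4.03, 4.84, 4.29 and 3.86 TPM in WT, at 9.49, 8.31, 9.01 and 6.24 TPM in *Rag2*-/- and at 8.73, 5.11, 6.41 and 6.37 TPM in NSG libraries, without overlap (0.67, adjusted p = 0.0739 in limma). *Cdkn1a*, the p21 inhibitor of the cell cycle, was at 34.3 to 55.3 TPM in WT and 47.6 to 64.4 TPM in the other libraries (0.41, adjusted p = 0.139), and *Ccng1*, cyclin G1, at 180 TPM in WT, 233 TPM in *Rag2*-/- and 220 TPM in NSG libraries on average (0.32, adjusted p = 0.135).

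Immediate early genes, which respond within minutes to stimulation and to tissue handling, lay below WT in both hosts in 13 of 22 cases and above in 4, with a median of -0.16. *Fosb* was at 40.0 TPM in WT, 10.8 TPM in *Rag2*-/- and 18.9 TPM in NSG libraries on average, with a spread that left it uncalled (-1.05, adjusted p = 0.556 in limma). Among 30 hypoxia and glycolysis genes, 15 were below WT in both hosts and 7 above, and *Hk1*, hexokinase 1, was below WT in all 8 libraries by 0.17 (adjusted p = 0.106). Among homing receptors, *Cxcr4*, the receptor that retains cells in bone marrow, was at 482 to 532 TPM in WT and 549 to 719 TPM in the other libraries (0.24, adjusted p = 0.113), and *Cd93* was at 196 to 221 TPM in WT and 131 to 186 TPM in the others (-0.39, adjusted p = 0.0774).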
